A study of Mus musculus with 5 samples.

Results

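RNA polymerase II (Pol II) occupancy was described over 10 genes, Foxp3 and 9 genes of transcription factors known to work with its protein in regulatory T (Treg) cells, namely Ikzf1, Ikzf2, Ikzf3, Ikzf4, Runx1, Runx3, Cbfb, Ets1 and Foxp1. The genes were chosen by name. A peak was assigned to a gene when its midpoint lay in the gene body or within 3 kb upstream, in the mm10 mouse genome. By this rule the 10 genes, of 12927 genes with a peak, held 359 of the 56615 peaks measured.

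Foxp3 encodes the transcription factor that defines the Treg lineage. Its protein binds DNA in complexes with others: Runx1 or Runx3 with their non-DNA-binding partner Cbfb, Ets1, the related forkhead factor Foxp1, and zinc finger proteins of the Ikaros family, which are Ikaros (Ikzf1), Helios (Ikzf2), Aiolos (Ikzf3) and Eos (Ikzf4). Helios and Eos are known in Treg cells as factors that keep the lineage stable, and Runx complexes with Cbfb are known to maintain transcription of Foxp3 itself.

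CUT&Tag, in which an antibody on chromatin directs a transposase to cut the DNA beside its target, was applied to nuclei of Treg cells from the spleen of C57BL/6 mice. All mice carried the Foxp3 Cre-YFP allele, so that Cre was made in cells that express Foxp3, and the floxed Setd2 gene, on 1 allele in Ctrl mice (Foxp3Cre-YFP Setd2 f/+) and on both in KO mice (Foxp3Cre-YFP Setd2 f/f). Setd2 encodes a histone methyltransferase that marks lysine 36 of H3 over transcribed genes. Mice of 8 weeks received IL-2c, 1 μg of IL-2 complexed with 5 μg of anti-IL-2 antibody, for 3 days, and spleens were taken 48 h later; each of the 2 Ctrl and 2 KO libraries held 80000 nuclei, and the labels give 2 mice and both sexes pooled. As both groups carried the Cre-YFP allele of Foxp3, the Foxp3 values compare modified loci with each other. Foxp3 is X-linked, and the proportion of female cells in each library was not given in the sources used here.

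The 4 libraries held between 4489646 and 13351007 counts in peaks, and Ctrl 1 and KO 1 were deeper than Ctrl 2 and KO 2. Peaks of the 10 genes took 0.814% of the counts of Ctrl 1 (95% Wilson interval 0.809 to 0.819), 0.764% of Ctrl 2 (0.757 to 0.771), 0.857% of KO 1 (0.852 to 0.862) and 0.813% of KO 2 (0.804 to 0.821). The share was highest in KO 1 and lowest in Ctrl 2, and KO 2 and Ctrl 1 differed by less than the counting error. Setd2 itself had 9 peaks with 512, 518, 455 and 569 normalized counts in Ctrl 1, Ctrl 2, KO 1 and KO 2. Whether any of these peaks lies over the deleted segment was not examined, so this value checks no label. Of 14 markers of Treg cells, 14 had a peak, and their summed normalized count was 37355 to 42954 in Ctrl and 39647 to 44509.9 in KO libraries. These markers include Foxp3 and Ikzf2. Without them the other 12 summed to 21239 to 23702 in Ctrl and 22895.5 to 24740 in KO libraries. None of 6 markers of CD8 and NK cells, 2 of 6 of conventional T cells, 3 of 8 of B cells, 3 of 8 of myeloid cells and 1 of 6 of erythroid cells had a peak, with sums of at most 604 in any library.

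Sequences of 5 stretches of DNA, from promoters and peaks named below, are printed because they show motifs of these same factors. Peak centres with no match to the motifs were left out, among them that of the Ikzf3 peak chr11:98488738-98491033, described below. All are in GRCm38.p6 (mm10) and written 5′ to 3′ on the strand of the gene, and capitals mark 4 core motifs searched on both strands: TGTGGT or ACCACA for RUNX, GGAAGT or ACTTCC for ETS, TGGGAA or TTCCCA for Ikaros and TGTTTA or TAAACA for forkhead factors. The first 3 are RefSeq promoters, 250 bases before to 50 after the transcription start. They are the Foxp3 promoter at chrX:7579426-7579725 on the plus strand, the upstream promoter of Runx1 at chr16:92826025-92826324 on the minus strand and the upstream promoter of Runx3 at chr4:135120395-135120694 on the plus strand. The other two are the central 300 bases of peaks, namely the Ikzf3 peak around the start site at chr11:98545900-98546199 and the Foxp1 peak with the lowest p-value of all 359 at chr6:99432994-99433293, both on the minus strand.
Foxp3 promoter: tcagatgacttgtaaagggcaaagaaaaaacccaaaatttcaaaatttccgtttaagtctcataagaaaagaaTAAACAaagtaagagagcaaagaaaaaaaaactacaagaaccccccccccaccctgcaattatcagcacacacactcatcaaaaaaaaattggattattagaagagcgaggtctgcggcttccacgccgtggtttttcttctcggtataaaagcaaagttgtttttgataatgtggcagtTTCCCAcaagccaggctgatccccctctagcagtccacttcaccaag
Runx1 upstream promoter: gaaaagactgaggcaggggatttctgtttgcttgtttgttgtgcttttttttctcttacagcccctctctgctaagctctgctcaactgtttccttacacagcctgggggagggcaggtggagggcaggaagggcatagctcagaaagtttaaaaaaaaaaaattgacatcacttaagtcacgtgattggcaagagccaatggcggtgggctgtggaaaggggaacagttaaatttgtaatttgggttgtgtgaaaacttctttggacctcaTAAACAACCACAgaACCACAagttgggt
Runx3 upstream promoter: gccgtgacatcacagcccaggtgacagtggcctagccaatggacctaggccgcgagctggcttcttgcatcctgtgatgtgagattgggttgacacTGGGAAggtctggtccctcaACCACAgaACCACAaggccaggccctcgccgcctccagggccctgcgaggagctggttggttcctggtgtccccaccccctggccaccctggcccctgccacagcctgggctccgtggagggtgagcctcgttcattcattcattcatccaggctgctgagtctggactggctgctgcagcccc
Ikzf3 start-site peak: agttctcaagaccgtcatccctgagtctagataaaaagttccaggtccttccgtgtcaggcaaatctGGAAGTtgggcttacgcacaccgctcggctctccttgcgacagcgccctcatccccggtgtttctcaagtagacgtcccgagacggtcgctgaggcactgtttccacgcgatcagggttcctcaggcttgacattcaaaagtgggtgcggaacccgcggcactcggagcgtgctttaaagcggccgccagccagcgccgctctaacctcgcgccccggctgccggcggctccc
Foxp1 upstream peak: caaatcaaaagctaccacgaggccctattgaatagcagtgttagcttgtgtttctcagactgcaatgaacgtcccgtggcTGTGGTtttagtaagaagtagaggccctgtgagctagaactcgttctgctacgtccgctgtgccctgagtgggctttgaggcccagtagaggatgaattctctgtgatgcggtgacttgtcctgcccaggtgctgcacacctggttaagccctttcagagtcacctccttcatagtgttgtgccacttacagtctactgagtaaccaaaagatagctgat

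The Foxp3 promoter held 1 forkhead and 1 Ikaros match and no RUNX or ETS match in these letters. The upstream promoters of Runx1 and Runx3 both held 2 RUNX matches that stand 2 bases apart, ACCACANNACCACA, inside an identical run of 18 bases, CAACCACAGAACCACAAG; in Runx1 the forkhead match directly precedes the first of them. This pair occurred in 7 of 32851 RefSeq mouse promoter windows (0.0213%), 2 of which were those of Runx1 and Runx3. As the pair and its spacing were taken from these 2 windows, their presence among the 7 was fixed in advance and is no separate result. RefSeq promoter windows were at hand for 6 of the genes, 12 windows in all, and Ikzf2, Ikzf3, Ikzf4 and Ets1 had none. RUNX letters were in 2 of the 12 windows (16.8% of all promoter windows), ETS in 1 (23.8%), Ikaros in 3 (25.6%) and forkhead in 5 (13.4%). Over the central 300 bases of the 359 peaks, 26.7% held RUNX letters against 24.4% of all peaks, 20.9% against 20.8% ETS, 30.1% against 24.3% Ikaros and 16.4% against 13.6% forkhead. A match is a description of the letters and not evidence of binding.

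Pol II over Foxp3 was at about the same level in both genotypes, and the gene with the clearest difference was Ikzf3. Normalized counts are raw counts divided by DESeq2 size factors, summed here over all peaks of a gene. Foxp3 (ENSMUSG00000039521.13, chrX:7573644-7595245, plus strand) had 1885, 1651, 1861 and 1646 in Ctrl 1, Ctrl 2, KO 1 and KO 2, in this order. The groups overlapped, with KO 1 between the Ctrl libraries and KO 2 just below both, and the library numbered 1 was the higher in both groups. The log2 fold change (KO over Ctrl) amounted to -0.01 ± 0.14 (SE, n = 2 per group, DESeq2 Wald test adjusted p = 1.00), with a 95% interval of -0.29 to 0.27. Log2 differences below -0.29 or above 0.27 lay outside this interval, and those within it were not distinguished from 0 with 2 libraries per group. Its bounds are not a limit of detection, as the Ikzf3 difference of 0.31, given below, did not pass after adjustment. In a bulk library, occupancy per cell and the makeup of the sorted cells cannot be told apart.

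**Figure D1:**
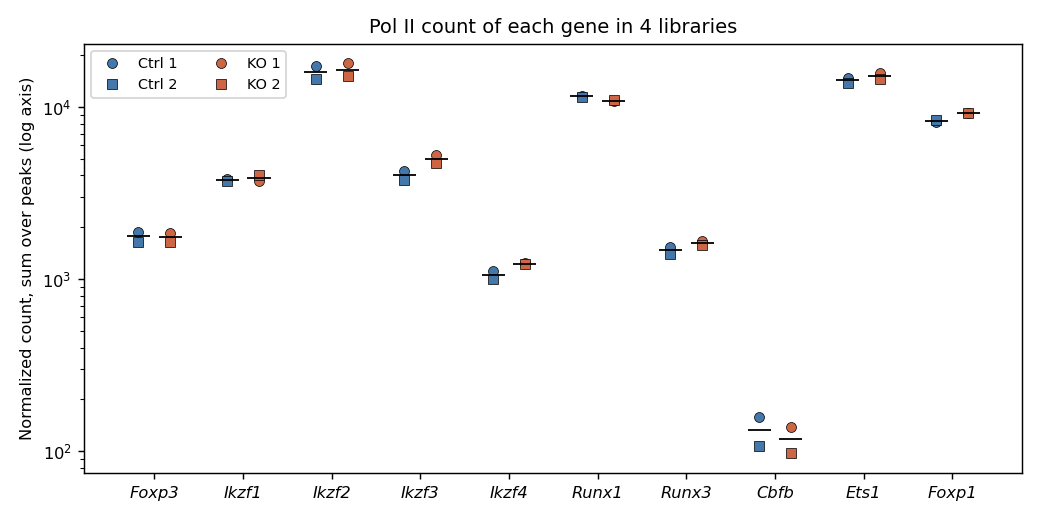
Normalized Pol II counts summed over the peaks of each of the 10 genes (log axis) in the 4 libraries, circles for libraries numbered 1, squares for those numbered 2, and lines for the group means. The 2 KO libraries of Ikzf3 (5267 and 4711) lie above its 2 Ctrl libraries (4255 and 3776), whereas the groups overlap in Foxp3.

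Of the 4 peaks of Foxp3, all within 3 kb of an annotated start, none passed an unadjusted p of 0.05. The highest, chrX:7582832-7587367, covers exons 2 to 6 of the longest coding transcript and had 1068, 938, 1090.2 and 998 normalized counts in Ctrl 1, Ctrl 2, KO 1 and KO 2. The peak over the promoter printed above, chrX:7577832-7582537, had 620.3, 441, 588 and 433 in the same order. In both of these the groups overlapped, with log2 fold changes of 0.06 ± 0.19 and -0.05 ± 0.25. The 2 outer peaks were lower in both KO libraries. The upstream peak chrX:7575878-7577372, which is shared with the neighbouring gene Ppp1r3f, had 179.7 and 189 in Ctrl against 146 and 141 in KO (-0.35 ± 0.28, DESeq2 adjusted p = 1.00). The peak chrX:7588785-7589477, over exons 9 and 10, had 62.5 and 66.1 in Ctrl against 48.7 and 47.7 in KO (-0.41 ± 0.43, DESeq2 adjusted p = 1.00). The intervals of both differences include 0.

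**Figure D2:**
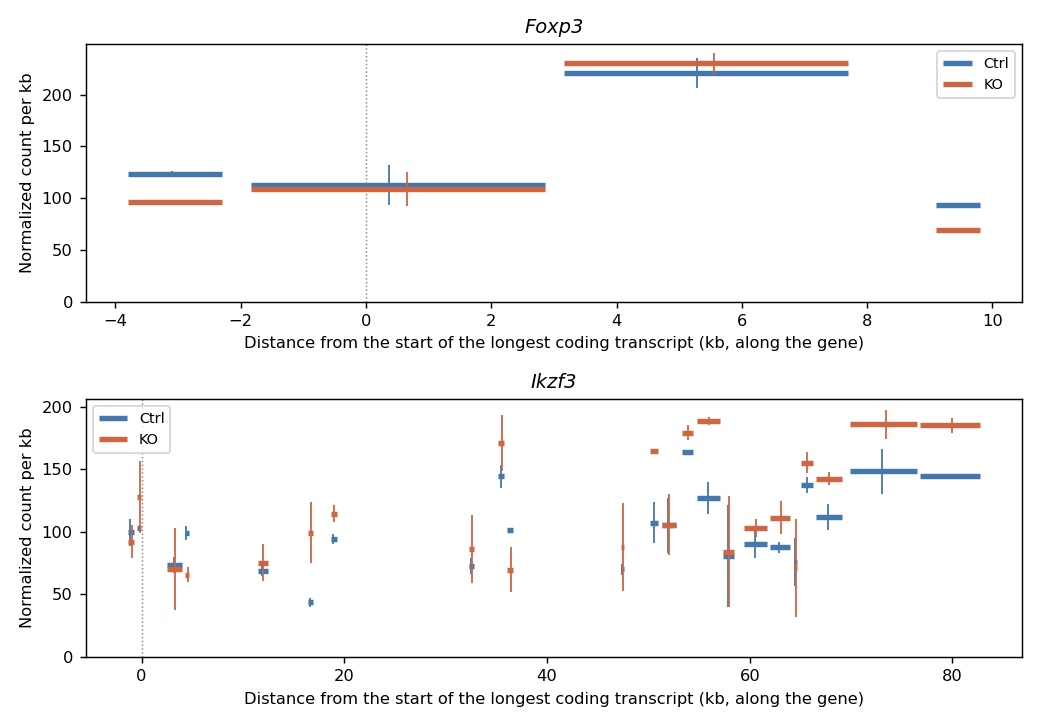
Normalized Pol II count per kb of each peak of Foxp3 (top) and Ikzf3 (bottom) against the distance of the peak from the start of the longest coding transcript (kb), with Ctrl in blue and KO in orange. Horizontal bars span the peak at the mean of 2 libraries and vertical lines join the 2 libraries; in Ikzf3 the separation of KO from Ctrl is seen beyond about 50 kb, where most of its counts lie.

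Ikzf3 (Aiolos; ENSMUSG00000018168.8, chr11:98464902-98546031, minus strand) had 4255 and 3776 normalized counts in Ctrl against 5267 and 4711 in KO libraries. Both KO libraries lay above both Ctrl libraries, with a log2 fold change of 0.31 ± 0.13 (1.24-fold) and a 95% interval of 0.06 to 0.56. It was the only one of the 10 genes with an unadjusted p below 0.05, at 0.0135 by DESeq2 and 0.00781 by edgeR's quasi-likelihood test, against 2.89% of all 12927 genes at that threshold by DESeq2 and 4.88% by edgeR. Adjusted over all genes neither test called it (adjusted p = 1.00 by DESeq2, 0.795 by edgeR), and none of the 10 was among the 13 genes called by DESeq2 (0.101%; edgeR called 0). With Ctrl 2 or KO 1 left out the log2 fold change was 0.23 in each case, and it was 0.41 without Ctrl 1 and 0.39 without KO 2. Each of these fits leaves 1 library in a group, so only the size of the difference is given.

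Within Ikzf3, 18 of 23 peaks were higher in the KO mean, 10 had both KO libraries above both Ctrl libraries and 2 the reverse, where 16.2% of all peaks had the former and 16.1% the latter. The peak chr11:98488738-98491033, over exons 4 and 5 and an internal annotated start, had 322, 263, 441 and 426 normalized counts in Ctrl 1, Ctrl 2, KO 1 and KO 2, with no overlap of the groups (0.56 ± 0.23, DESeq2 unadjusted p = 0.015, adjusted p = 1.00). A low peak in intron 1, chr11:98528865-98529387, had 20.8 and 24.8 in Ctrl against 39.2 and 64.7 in KO (1.17 ± 0.55, DESeq2 unadjusted p = 0.0329, adjusted p = 1.00). These were the 2 Ikzf3 peaks that passed the unadjusted threshold, which 1.53% of all peaks passed. The broad domains at the end of the gene were higher in both KO libraries too. One of 5936 bp over the last exon, chr11:98463100-98469035, had 863 and 857 in Ctrl against 1064 and 1134 in KO, and one of 6555 bp in intron 7, chr11:98469325-98475879, had 1091 and 854 against 1297 and 1141. At the start site itself the groups overlapped, with 49.6 and 49.6 in Ctrl against 75.5 and 47.7 in KO at chr11:98545809-98546290.

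The position of the difference was described by dividing each gene body at its middle, a division made after the values had been seen and therefore given with no test. In the second part of Ikzf3, 13 peaks summed to 3789 and 3179 in Ctrl against 4590.1 and 4134 in KO, a log2 ratio of 0.32. The 10 peaks of the first part had 569 and 558 in Ctrl against 710.0 and 502 in KO, a log2 ratio of 0.10. The groups were apart in the second part and overlapped in the first. Ikzf4 had the same arrangement, at 0.28 in the second part and 0.10 in the first, and Foxp1 the opposite, at 0.08 and 0.25. Of the 9 genes with counts in both parts, 6 had the larger ratio in the second, as had 61.2% of 4802 genes measured in the same way, for which the medians were -0.03 in the first and 0.04 in the second.

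The other Ikaros family genes differed less. Ikzf4 (Eos) had 1111 and 1004 normalized counts in Ctrl against 1234 and 1227 in KO, with no overlap, and a log2 fold change of 0.22 ± 0.14 that did not pass (DESeq2 unadjusted p = 0.133). Its peak in exon 8, chr10:128634272-128635051, had 81.9 and 81.3 in Ctrl against 118 and 124 in KO, whereas its start-site peak, chr10:128645160-128645974, had 152 and 124 against 139 and 104. The latter overlapped between the groups. Ikzf2 (Helios) had 17367, 14465, 17909 and 15106 in Ctrl 1, Ctrl 2, KO 1 and KO 2. The libraries numbered 1 were again higher than those numbered 2, and the fold change was 0.05 ± 0.13. Its highest intron peak, chr1:69538677-69546546, which spans exons 7 and 8, had 1759 and 1443 in Ctrl against 2075 and 1802 in KO (0.28 ± 0.19), without overlap. Ikzf1 (Ikaros) had 3791, 3739, 3725 and 4010.0, and the groups overlapped at 0.04 ± 0.12. Its highest peak, chr11:11725038-11726982 in intron 3, had 505 and 577 in Ctrl against 481 and 601 in KO.

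Runx1 was the only gene of the 10 with both KO libraries below both Ctrl libraries, by a difference that did not pass the test. It had 11650.1 and 11460.4 normalized counts in Ctrl against 10836 and 10971 in KO (-0.08 ± 0.11, DESeq2 unadjusted p = 0.442). Its longest peak is a domain of 17273 bp, chr16:92809467-92826739, which runs from the upstream promoter printed above over exons 1 and 2; by its midpoint it counts as intronic. The domain had 4709, 3800.0, 3997 and 3241 in Ctrl 1, Ctrl 2, KO 1 and KO 2. Ctrl 1 was the highest and KO 2 the lowest, and the groups overlapped (-0.23 ± 0.19, DESeq2 unadjusted p = 0.221). The next domain into the gene, chr16:92802999-92808989, had 1174 and 1171 in Ctrl against 1103 and 1047 in KO. At the second promoter of Runx1, chr16:92697261-92699782, the values 453 and 344 in Ctrl against 438 and 395 in KO overlapped.

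Runx3, the Runx gene known for its part in CD8 T cells as well as Treg cells, had 1541 and 1406 in Ctrl against 1659 and 1584 in KO. The KO libraries were the higher (0.14 ± 0.14, DESeq2 unadjusted p = 0.313), by 0.07 without Ctrl 2 and 0.21 without Ctrl 1. Its peak over the upstream promoter printed above, chr4:135119614-135120747, had 176 and 135 in Ctrl against 195 and 169 in KO, and its highest promoter peak, chr4:135153161-135154476, had 264 and 227 against 270.3 and 237. Both overlapped between the groups. Cbfb, which codes for the shared partner subunit, was the most thinly covered gene, with 2 peaks and 158, 107, 138 and 96.9 normalized counts in Ctrl 1, Ctrl 2, KO 1 and KO 2. Its interval, -0.82 to 0.49 around -0.16, was the widest of the 10, so that for Cbfb little was detectable at this depth.

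Ets1 had 14787 and 13759 in Ctrl against 15671 and 14529 in KO, which overlapped (0.08 ± 0.11, 0.03 without Ctrl 2 or KO 1 and 0.14 without Ctrl 1 or KO 2). Most of its counts lay in 3 domains that begin just past the start site. The first, chr9:32698758-32724962, is 26205 bp long in intron 1 and had 5995, 5156, 5826 and 4903 in Ctrl 1, Ctrl 2, KO 1 and KO 2. The other two had both KO libraries above both Ctrl libraries, with log2 fold changes of 0.18 ± 0.17 at chr9:32725740-32737033 and 0.14 ± 0.17 at chr9:32739966-32748139. The start-site peak, chr9:32694890-32698145, overlapped between the groups at 981 and 711 in Ctrl against 948 and 627 in KO.

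Foxp1 had the most peaks, 119 over a gene of 597384 bp, of which 35 also fall in Gm20696, an annotated readthrough gene, and cannot be credited to either. Its sum was 8182 and 8434 in Ctrl against 9228 and 9258 in KO. Both KO libraries were higher (0.15 ± 0.11, unadjusted p = 0.164 by DESeq2 and 0.0532 by edgeR). Over unshared peaks alone the difference was 0.10 (DESeq2 unadjusted p = 0.41), and that of its promoter sum went from 0.08 to 0.0078. The peak chr6:99432266-99434022, far upstream of the longest coding transcript and shared with Gm20696, had 152 and 135 in Ctrl against 269 and 218 in KO (0.77 ± 0.28, DESeq2 unadjusted p = 0.0058, adjusted p = 1.00). In the other direction, chr6:99177142-99177522 had 28.8 and 40.0 in Ctrl against 16.0 and 5.11 in KO (-1.57 ± 0.72, DESeq2 unadjusted p = 0.03, adjusted p = 1.00). This is a low peak, and the value in KO 2 stands for 3 counts. The highest promoter peak, chr6:99091638-99096864, overlapped between the groups at 1059.5 and 737 in Ctrl against 1028 and 809 in KO.

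**Figure D3:**
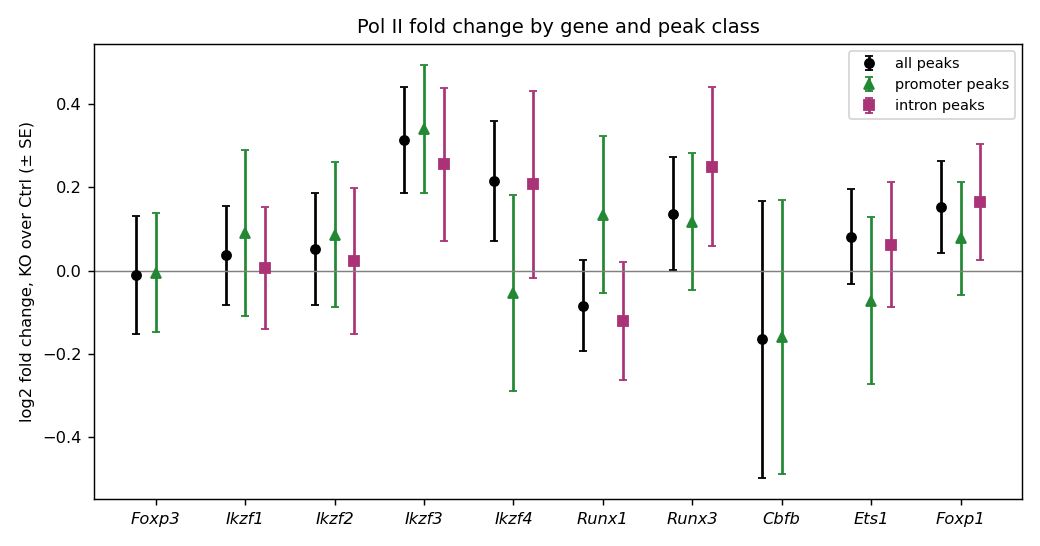
Log2 fold change of Pol II counts, KO over Ctrl, with its standard error from DESeq2, for each gene over all peaks (circles), promoter peaks (triangles) and intron peaks (squares); Foxp3 and Cbfb have no intron peak. The bars of Ikzf3 lie above 0 in each class, and those of Foxp3 and Ikzf1 span 0.

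In all, 4 of the 10 genes had both KO libraries above both Ctrl libraries (17.5% of all genes) and 1 had both below (16.9%). Their median log2 fold change was 0.07, and that of all genes -0.00; with 1 library left out it ranged from 0.03 (without Ctrl 2) to 0.14 (without Ctrl 1 or KO 2). When promoter peaks were summed alone, Ikzf3 was again the only one of 10 with an unadjusted p below 0.05, against 2.47% of 12002 genes. Its promoter sum was 1175 and 1006 in Ctrl against 1456 and 1306 in KO (0.34 ± 0.15, DESeq2 unadjusted p = 0.0272). Without Ctrl 2, KO 1 or KO 2 the unadjusted DESeq2 p was 0.244, 0.254 and 0.0513. Here the word promoter covers any annotated start, internal ones included. None of the 10 was among the 10 genes with an adjusted p below 0.05 (0.0833%; edgeR called 0). Foxp3 gave -0.00 ± 0.14 in this sum. All of its peaks are promoter peaks, so these are the counts of its gene sum and no separate result. For intron peaks, 0 of 8 genes passed an unadjusted p of 0.05 by DESeq2 (2.88% of 4961 genes), 0 by edgeR, and 0 were among the 2 genes called after adjustment (0.0403%). Intron sums were higher in both KO libraries for Runx3, at 561 and 498 in Ctrl against 621 and 642 in KO (0.25 ± 0.19), and for Foxp1 (0.17 ± 0.14). They were lower in both for Runx1, at 11672 and 10722 in Ctrl against 10605 and 9994 in KO (-0.12 ± 0.14). The Runx1 intron sum includes the domain of 17273 bp that holds its upstream promoter.

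The balance of promoter and intron counts was compared within each library, where no scaling between libraries enters, as log2 of promoter counts over intron counts with 1 added to each. The ratio of Ikzf4 was -0.82 and -0.67 in Ctrl and -0.95 and -1.18 in KO, lower in both KO libraries. That of Runx1 was -4.53 and -4.78 in Ctrl and -4.41 and -4.42 in KO, higher in both, and that of Ikzf3 was higher in both by 0.06 in the mean. The Runx1 intron counts include the domain of 17273 bp that holds its upstream promoter. This domain gave 6551 of 15865, 2758 of 7919, 6728 of 17460 and 1903 of 6021 raw intron counts in Ctrl 1, Ctrl 2, KO 1 and KO 2. The Runx1 ratio without this domain was not computed. Across all genes, 13.5% had both KO libraries above and 15.4% both below. The differences of the 8 genes ran from -0.32 in Ikzf4 to 0.24 in Runx1, 4 in each direction, and an exact permutation test over libraries (two-sided) gave p from 0.333, the smallest it can give with 2 against 2 libraries, to 1.00.

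Taken one at a time, 4 of the 359 peaks had an unadjusted DESeq2 p below 0.05, 3 higher and 1 lower in KO, or 1.11% against 1.53% of all peaks. They are the Ikzf3 and Foxp1 peaks given above. The edgeR test called 10 at that threshold, 2.79% against 3.63% of all peaks. Of those 10, 5 were Ikzf3 peaks, all higher in KO, 2 were Foxp1 peaks, and Ets1, Ikzf1 and Ikzf4 had 1 each. After adjustment none of the 359 passed by either tool, and DESeq2 called 0.0% of all peaks (edgeR called 27 peaks, none of them in these genes). By position of the libraries, 80 peaks (22.3%) had both KO libraries above both Ctrl libraries and 36 (10.0%) both below, against 16.2% and 16.1% of all peaks. Peaks of 1 gene are not independent of each other, and 35 of the 80 were Foxp1 peaks and 10 Ikzf3 peaks. Runx1, with 9 above and 13 below among 74 peaks, had the larger number below.

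**Figure D4:**
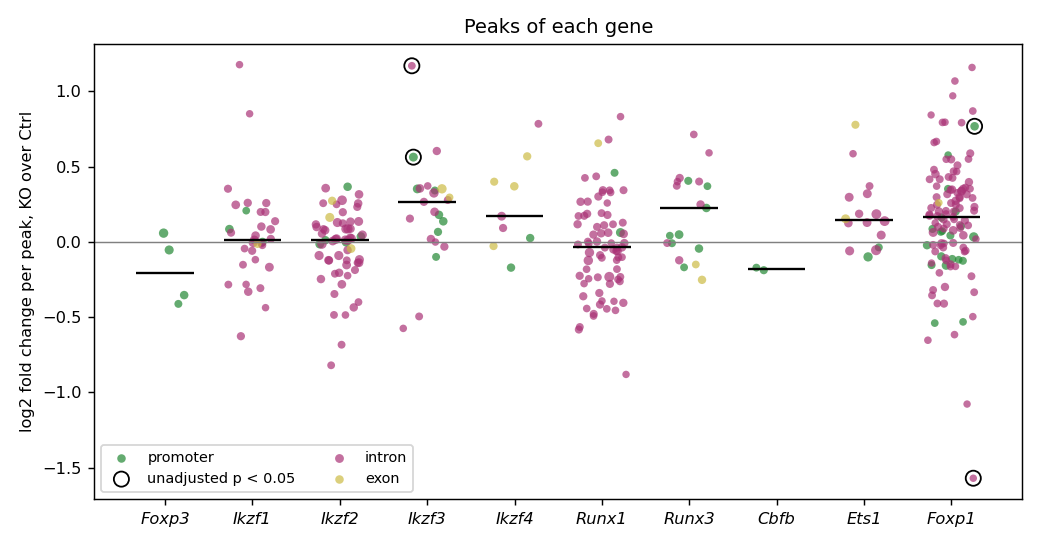
Log2 fold change of each of the 359 peaks, KO over Ctrl, by gene and by class of peak (promoter, intron, exon); lines mark the median of each gene and rings the 4 peaks with an unadjusted DESeq2 p below 0.05. The medians of Ikzf3, Runx3, Ikzf4, Foxp1 and Ets1 lie between 0.15 and 0.27. Those of Foxp3 (4 peaks), Cbfb (2 peaks) and Runx1 (74 peaks) lie below 0.

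The spread of single peaks followed their depth. Among the 131 peaks with a mean under 50 normalized counts the median standard error was 0.55 on the log2 scale, and among the 23 with 500 or more it was 0.20. These 23 ranged from -0.23, in the Runx1 domain, to 0.35, in the last exon of Ikzf3. Long domains were frequent in these genes, with 11 of 359 peaks (3.06%) of 5 kb or more against 0.982% of all peaks. They belonged to 5 genes, Ets1, Runx1, Ikzf2, Ikzf3 and Foxp1. The summed length of the assigned peaks, parts outside the gene included, was set against the length of the gene. It came to 66.3% for Ikzf2, 53.8% for Ets1 and 52.9% for Foxp3, but 12.3% for Foxp1 and 2.42% for Cbfb.

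Levels were compared between genes as normalized counts per kb of peak. In Ctrl the order was Ets1 at 218 ± 11.1 (SD, n = 2), Ikzf4 at 189 ± 13.6, Runx1 at 157 ± 1.83, Foxp3 at 155 ± 14.5, Ikzf2 at 154 ± 19.8, Ikzf1 at 133 ± 1.3, Runx3 at 117 ± 7.62, Ikzf3 at 117 ± 9.91, Cbfb at 116 ± 31.3 and Foxp1 at 113 ± 2.42. Ets1 lay above Ikzf4 and Ikzf4 above Runx1 in all libraries of a group, in Ctrl and in KO alike. Runx1, Foxp3 and Ikzf2 did not differ beyond their spread, nor did Runx3, Ikzf3, Cbfb and Foxp1 in Ctrl. In KO the level of Ikzf3 per kb of peak was 146 ± 11.5, near that of Runx1 at 149 ± 1.3. Foxp3 was at 153 ± 13.3 per kb in KO, and its density in Ctrl stood at percentile 57.0 of all genes.

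The genes whose 4 values were most like those of Foxp3 were Trp53i13, Ptger2 and Gadd45b, by the Euclidean distance between log2(normalized count + 1) values centred on their mean over the 4 libraries. The distances were 0.00954, 0.0147 and 0.0185, among 10423 genes with a mean of at least 100 normalized counts. As 474 genes lay within 0.1, likeness over 4 libraries singles out no gene. Among the partners Ikzf2 was the nearest, at 0.096, and Cbfb the farthest, at 0.381.

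Genes of the same families and of other proteins known to work with Foxp3 were examined in lists. Of 30 transcription factors that Foxp3 is known to bind or to work beside, 29 had a peak. Their median log2 fold change was -0.07, and it was positive in 9 of the 29, against 49.1% of all genes. The KO pair was under the Ctrl pair in 7 of the 29 and over it in 4, against 16.9% and 17.5% of all genes. The list thus leaned to lower values in KO, a lean that was not tested. Of the 29, 2 (Satb1 and Nr4a3) had an unadjusted DESeq2 p below 0.05, against 2.89% of all genes, and none an adjusted one. By edgeR the unadjusted p was below 0.05 for Satb1 (0.0265), Nr4a1 (0.0204), Nr4a3 (0.0106) and Nfatc1 (0.0436), against 4.88% of all genes. Of these Nfatc1 was the higher in KO, and none passed after adjustment. Satb1, a chromatin organizer needed early in the Treg lineage, had 1501 and 1495 normalized counts in Ctrl against 1164 and 1295 in KO (-0.29 ± 0.14, DESeq2 unadjusted p = 0.0382). Nr4a3, a nuclear receptor induced by T cell receptor signals, had 7727 and 7289 in Ctrl against 6598 and 5928 in KO (-0.26 ± 0.12, DESeq2 unadjusted p = 0.0282). In both genes the KO libraries were the lower. The list ranged from Rel at -0.30 to Zfp281 at 0.25. Of 30 chromatin regulators, 29 had a peak and none passed, with a median of 0.02 and a range from Suz12 at -0.18 to Ezh2 at 0.27. Among the other ETS family genes, 13 of 14 had a peak with a median of 0.07, and Elk1, over a single peak shared with a neighbouring gene, had 233 and 283 in Ctrl against 183 and 175 in KO (-0.52 ± 0.25, DESeq2 unadjusted p = 0.0352). Related genes of the other lists, namely Runx2, the genes of the corepressors Cbfa2t2 and Cbfa2t3 that associate with Runx factors, Foxp2, Foxp4 and Ikzf5, gave log2 fold changes between -0.11 and 1.08, none of which passed. The highest, Foxp2 at 1.08 ± 0.58, rested on 1 low peak with 25 and 17 raw counts in Ctrl against 65 and 28 in KO. Runx2 was higher in both KO libraries, at 1821 and 1682 in Ctrl against 1937 and 2176 in KO.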

How the data were processed

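Pol II CUT&Tag was performed on splenic Treg cell nuclei, 2 Ctrl and 2 KO libraries. Per the labels and methods, the authors mapped paired reads to mm10 with Bowtie2, called peaks with MACS2 against IgG, merged them and extracted raw read counts per peak with bedtools (versions not given in the sources used here). The deposited table holds these counts, 4489646 to 13351007 per library; every per-sample column was used, and the IgG library is not analysed here. Peaks were chosen on the same libraries that were compared. Reads carry no strand. The study pooled cells of 2 mice and counts each library as a biological replicate; whether the libraries of a group came from separate pools was not given, so p-values may measure only the spread between these libraries.

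GENCODE vM21 genes were used. A peak was promoter if its midpoint lay within 3 kb of any annotated start of its gene, intron if it lay in no exon, and otherwise exon. The Wald test of DESeq2 1.42.0, the study's tool, run under R 4.3.3 (two-sided, genotype only, Benjamini-Hochberg adjustment over all features), compared KO with Ctrl on counts per peak and summed per gene, and checked with the edgeR 4.0.16 quasi-likelihood test. Intervals on shares cover counting error only. The text names all 10 genes, the highest promoter and intron peak of each, peaks with an unadjusted p below 0.05, listed genes past that threshold, and the 3 genes most like Foxp3; broad peaks, peaks at start sites and peaks called by edgeR were added after their values were seen. Genes and lists were chosen with earlier results of these data known. Alternatives were total-count scaling, a minimum mean of 10 raw counts, a replicate block, peaks of 1 gene only, any overlap in place of the midpoint, a 1 kb promoter, and each library left out.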

Additional observations from a re-analysis of the deposited data

How the results depend on the processing

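With 2 libraries per group and standard errors of 0.11 to 0.33 for gene sums, differences of the size seen in most of the 10 genes were within the error. Ikzf3 kept its direction under every alternative run, between 0.23 and 0.41 when a library was left out, and no adjusted call was made for it except under the replicate block. Replicate numbers are a label only and depth follows them (deviations from the group means correlated across genes, which are not independent, at 0.369, and at 0.947 across the 10 gene sums). With the replicate block, Ikzf3 had an adjusted p of 0.000238 (gene sum, DESeq2), members with an unadjusted p below 0.05 came to 7 peaks (4 without it), 2 gene sums (1) and 3 intron sums (0), and calls over all features after adjustment to 25 peaks (0), 115 gene sums (13), 41 promoter sums (10) and 62 intron sums (2). By edgeR, 10 of the 359 peaks had an unadjusted p below 0.05, and adjusted calls were 27 for peaks, 0 for gene sums and 0 for promoter sums, where 631 genes had an unadjusted p below 0.05 in the gene sums. With peaks of 1 gene only, adjusted calls were 7 for gene sums and 0 for promoter sums, and with a 1 kb promoter 4 for promoter and 1 for intron sums. The fold change of Foxp3 turned from -0.01 to 0.0022 with total-count scaling and 0.013 with unshared peaks, and its promoter sum to 0.0069 and 0.019; the promoter sum of Foxp1 turned to -0.033 with a 1 kb promoter. The cause of these shifts was not tested. The promoter sum of Foxp3 holds the same counts as its gene sum, so it is no separate measurement. Leaving out 1 library turned the sign of low differences: gene sums ranged from -0.105 to 0.091 for Foxp3, -0.46 to 0.15 for Cbfb, -0.076 to 0.193 for Ikzf2 and -0.015 to 0.090 for Ikzf1; promoter sums from -0.079 to 0.078 for Foxp3, -0.165 to 0.069 for Ikzf4, -0.43 to 0.14 for Cbfb, -0.36 to 0.16 for Ets1 and -0.087 to 0.297 for Ikzf2; intron sums from -0.048 to 0.073 for Ikzf1, -0.16 to 0.22 for Ikzf2, -0.019 to 0.504 for Ikzf4 and -0.037 to 0.163 for Ets1. The median of the 8 intron sums ranged from -0.022 to 0.191. That of the promoter sums ranged from -0.036 to 0.174, and that of the promoter over intron ratio from -0.138 to 0.062.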
